A study of Mus musculus with 8 samples.

Results

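Immunoglobulin heavy chain V segments (Ighv) were described in RNA of myeloid cells that were sorted from spleen (SP) and bone marrow (BM) of the sanroque strain. The members were all rows of the count table whose gene symbol starts with Ighv, which gave 185 of 54188 rows. Libraries 5 and 6 were CD11b+Gr-1hi cells of the SP, libraries 7 and 8 CD11b+Gr-1lo cells of the SP, libraries 9 and 10 CD11b+Gr-1hi cells of the BM and libraries 11 and 12 CD11b+Gr-1lo cells of the BM. The labels name the Gr-1hi cells G-MDSC. All groups carried the same genotype, homozygous Roquin san/san on a C57BL/6 background, a lupus-prone strain, and all mice were labelled female and 20 weeks old. No treatment was given, and no wild-type library was analysed here. The cells were sorted on CD11b and Gr-1, the paper states 2 independent biological replicates per condition, and its text describes the marrow cells as autologous. Which libraries shared a mouse, or whether mice were pooled, is not stated in the labels.

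A heavy chain V segment is one of many similar gene pieces on mouse chromosome 12. In a developing B cell, 1 V segment is joined to a D and a J segment, so each B cell clone and the plasma cells derived from it transcribe mainly the V segment they have rearranged, spliced to a constant gene such as Ighm or an Ighg gene. A broad set of clones therefore gives reads on many segments, and a few large clones give reads on few. Unrearranged V segments can also be transcribed at a low level, and many V segments are pseudogenes that cannot encode a working chain. Rearrangement of this locus marks cells of the B lineage. In bulk RNA, fewer cells of a type and less RNA per cell cannot be told apart, and the counts do not say which cell a read came from.

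The 185 rows lay between positions 113572927 and 116010093 of chromosome 12 (GRCm38), a span of 2437 kb, and 183 of them were on the minus strand. The annotation classed 113 rows as V genes, 70 as V pseudogenes and 2 as IG_LV_gene. The symbols place them in 16 families, named by the first number of the symbol. At least 1 count was found for 171 rows in any library and for 89 rows in all 8, while 14 rows were at 0 throughout. All 113 V genes had a count. Of the 185 rows, 109 passed the filter on low counts and were tested, 97 V genes and 12 pseudogenes. The 76 rows not tested had at most 52 counts over the 8 libraries and held 0.497% to 2.01% of the Ighv counts of a library.

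The end of each V segment carries the features by which rearranged chains are recognised. The last 99 transcript bases are shown for the 3 segments with the most counts in the spleen and for those that stood out in the BM Gr-1hi libraries. Sequences are from GENCODE M21 (GRCm38), 5′ to 3′ on the minus strand, and capitals mark the last TGT, in V genes the codon of the conserved cysteine at the end of framework 3.
Ighv1-26: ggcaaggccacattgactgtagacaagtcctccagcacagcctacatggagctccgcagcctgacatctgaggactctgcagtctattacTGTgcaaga
Ighv9-3: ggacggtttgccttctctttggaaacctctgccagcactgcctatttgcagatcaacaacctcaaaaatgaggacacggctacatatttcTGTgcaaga
Ighv3-6: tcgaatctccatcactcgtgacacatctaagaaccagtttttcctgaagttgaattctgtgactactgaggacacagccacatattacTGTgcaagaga
Ighv1-41: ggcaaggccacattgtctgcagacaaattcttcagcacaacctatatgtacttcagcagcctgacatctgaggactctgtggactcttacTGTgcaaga
Ighv8-10: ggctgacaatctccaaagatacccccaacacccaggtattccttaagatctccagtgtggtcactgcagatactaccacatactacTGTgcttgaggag
Ighv1-73: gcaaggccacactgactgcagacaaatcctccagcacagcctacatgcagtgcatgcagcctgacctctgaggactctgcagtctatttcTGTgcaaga
Ighv11-2: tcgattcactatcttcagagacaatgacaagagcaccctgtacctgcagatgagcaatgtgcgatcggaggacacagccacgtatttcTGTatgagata
A TGT stood within the last 20 bases in 97.3% of the V genes, in 70.0% of the pseudogenes and in 85.9% of all rows. The reading frames of Ighv1-26, Ighv9-3, Ighv3-6 and Ighv11-2 held no stop. The pseudogenes had an in-frame stop, at codon 54 in Ighv1-41, at codon 24 in Ighv8-10 and at codon 108 in Ighv1-73, counted from the first ATG. Over the part shown, Ighv1-41 was 84.8% identical and Ighv1-73 89.0% identical to Ighv1-26, which belongs to the same family. All 101-base stretches of Ighv1-41 occurred in no other annotated transcript, so that a read of the sequenced length could be assigned to it. That was so for 138 of the 185 rows. It was not so for Ighv1-62-2 and Ighv1-71, in which 9.71% and 3.09% of such stretches were unique, and their separate values are uncertain.

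The libraries held 33453580 to 68316154 counts, of which the Ighv rows took 20601 and 17875 in SP Gr-1hi, 19589 and 46188 in SP Gr-1lo, 1542 and 1071 in BM Gr-1hi, and 2482 and 3822 in BM Gr-1lo. For a row at 0, the limit is 3 counts in the library, which is 0.0348 to 0.124 CPM, the count scaled to a common library size. Intervals and this floor cover counting error only, and shares in the BM Gr-1hi libraries rest on the fewest counts. Ly6g, a granulocyte surface gene, was at 330 to 801 CPM in the Gr-1hi libraries and 3.07 to 8.23 in the Gr-1lo libraries, and Itgam, which encodes CD11b, was at 734 CPM or more in all 8. Against the label female, 6 libraries had at most 5 counts of the X-inactivation RNA Xist and 1725 to 4902 counts of the Y-linked gene Ddx3y. Library 7 had 9898 counts of Xist and 1595 of Ddx3y, and library 5 had 12032 and 0. Each SP group thus held 1 library with Xist and each BM group none, and the results without library 5 and without library 7 are given where they differ.

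The summed Ighv level was several times higher in the spleen than in the marrow in both subsets. It was 621 and 570 CPM in SP Gr-1hi, 413 and 535 in SP Gr-1lo, 57.6 and 44.2 in BM Gr-1hi and 50.8 and 72.2 in BM Gr-1lo. Every SP library was above every BM library. The group means were 596 ± 35.9 (SD, n = 2), 474 ± 86.1, 50.9 ± 9.50 and 61.5 ± 15.1 CPM, so that SP exceeded BM 11.7-fold in Gr-1hi cells and 7.71-fold in Gr-1lo cells. CPM are scaled by TMM, which sets libraries to a common level over most genes. The subsets of a tissue differed less and depended on that scaling. SP Gr-1hi was 1.26-fold above SP Gr-1lo by TMM, and SP Gr-1lo was 1.21-fold above SP Gr-1hi in CPM without TMM. BM Gr-1lo was 1.21-fold above BM Gr-1hi by TMM and 2.11-fold above it in CPM without TMM. With 2 libraries against 2, an exact two-sided permutation test cannot go below 0.333, and no test was run on sums or shares.

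**Figure D1:**
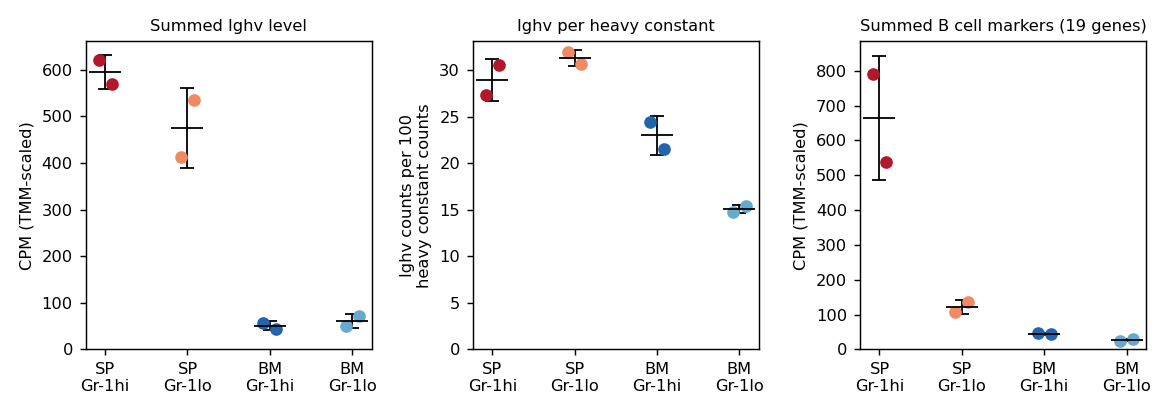
Summed Ighv level (left, TMM-scaled CPM), Ighv counts per 100 counts of heavy chain constant genes (middle) and summed level of 19 B cell markers (right, TMM-scaled CPM), each axis from 0. Points are the 2 libraries of a group, horizontal lines their mean and bars the SD; the Ighv level lay between 413 and 621 CPM in the SP libraries and between 44.2 and 72.2 CPM in the BM libraries.

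Other genes of B lineage cells were examined beside the segments. The 8 constant genes of the heavy chain, to which the V segments are spliced, gave 27.3 and 30.5 Ighv counts per 100 of their counts in SP Gr-1hi and 32.0 and 30.7 in SP Gr-1lo. That ratio was 24.5 and 21.5 in BM Gr-1hi and 14.8 and 15.4 in BM Gr-1lo. The class of the constant gene differed too. Ighm, the IgM chain, took 71.1% and 71.8% of the heavy constant counts in BM Gr-1hi, 62.0% and 57.2% in BM Gr-1lo, 47.3% and 33.3% in SP Gr-1hi and 23.7% and 30.0% in SP Gr-1lo. The Ighg genes took 45.3% to 74.5% in the SP libraries, 37.1% and 42.1% in BM Gr-1lo and 11.0% and 11.1% in BM Gr-1hi. Igha, the IgA chain, took 17.0% and 16.1% in BM Gr-1hi and at most 3.19% elsewhere.

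Among marker lists, summed B cell markers (19 genes) were at 791 and 539 CPM in SP Gr-1hi, 109 and 136 in SP Gr-1lo, 47.3 and 43.1 in BM Gr-1hi and 24.1 and 28.5 in BM Gr-1lo. In Gr-1hi cells, 19 of 19 were called higher in SP than in BM, as were 11 of 14 plasma cell genes tested, 11 of 12 constant genes of both chains and 9 of 10 T cell genes; 14.0% of all genes tested were called higher in that comparison. In Gr-1lo cells, the counts were 17 of 19, 6 of 14, 8 of 12 and 10 of 10, against 3.84% of all genes. None of these genes was called lower, where 1.48% of all genes tested were in Gr-1hi cells and 0.215% in Gr-1lo cells. Jchain, which joins IgM and IgA chains into polymers, was at 101 and 52.3 CPM in SP Gr-1hi, 29.1 and 41.0 in SP Gr-1lo, 8.00 and 6.36 in BM Gr-1hi and 2.95 and 5.65 in BM Gr-1lo. Of 11 early B cell genes tested, 4 were called higher and 1 lower in SP Gr-1hi against BM Gr-1hi, and 2 higher in Gr-1lo cells. Summed early B cell genes were at 438 and 418 CPM in SP Gr-1hi and 496 and 484 in BM Gr-1hi. In Gr-1lo cells they were at 276 and 277 CPM in SP and 250 and 233 in BM. Most of the Gr-1hi sums was Bst1, at 403 and 389 CPM in SP and 450 and 448 in BM. Most of the Gr-1lo sums was Bst1, at 111 and 132 CPM in SP and 90.4 and 97.5 in BM, and Cd93. Cd93 was at 159 and 138 CPM in SP Gr-1lo and 157 and 132 in BM Gr-1lo. Rag1 was at 1.72 CPM or less in every library, so these sums do not measure B cell precursors. Summed plasma cell genes were at 688 and 582 CPM in SP Gr-1hi and 367 and 354 in BM Gr-1hi. In Gr-1lo cells these were at 853 and 866 CPM in SP and 822 and 826 in BM. Xbp1 and Edem1 made up most of the sum in every library. In Gr-1lo cells Xbp1 was at 275 and 246 CPM in SP and 241 and 215 in BM, and Edem1 at 285 and 273 and at 285 and 270. The median log2 FC of SP against BM over the 14 plasma cell genes tested was 2.74 in Gr-1hi and 1.16 in Gr-1lo cells. Of 13 genes for V(D)J joining and class switching, 4 and 1 were called higher in Gr-1hi and Gr-1lo cells and none lower. Of 10 neutrophil genes, 2 were called lower in Gr-1hi cells and 2 higher in Gr-1lo cells of SP, and of 8 monocyte genes 1 was called higher in Gr-1hi cells. The part of these cells in the Ighv level was not tested.

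Of the 109 segments tested in Gr-1hi cells, 98 were called higher in SP than in BM and 2 lower, where 14.0% and 1.48% of all 17650 genes were called. The filter was set over all 8 libraries, so a segment could be tested on its SP counts alone. Such a segment can be called higher in SP but hardly lower, which limits what these counts of calls show. A call between SP and BM needed an adjusted p of at most 0.05 (edgeR quasi-likelihood test) and an FC of at least 2. Without library 5, 92 were called higher. The median log2 FC was 3.91 over the segments, 3.90 with those of 3 counts or fewer in a group set to their ratio or bound, and 0.03 over all genes. The SP libraries lay entirely above the BM libraries for 104 segments, where 35.9% of all genes did. In Gr-1lo cells, 88 segments were called higher, where 3.84% of all genes were, and 73 were without library 7. The median log2 FC was 3.01, or 2.96 with the low segments set to their ratio or bound, and -0.01 over all genes. No segment was called lower in Gr-1lo cells by edgeR or by DESeq2. In edgeR, 0.215% of all genes were, so the absence of such calls was near the share over all genes. None was lower at an unadjusted p of at most 0.05 (edgeR), where 8.32% of all genes were. The SP libraries lay above the BM libraries for 107 segments, where 27.1% of all genes did.

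**Figure D2:**
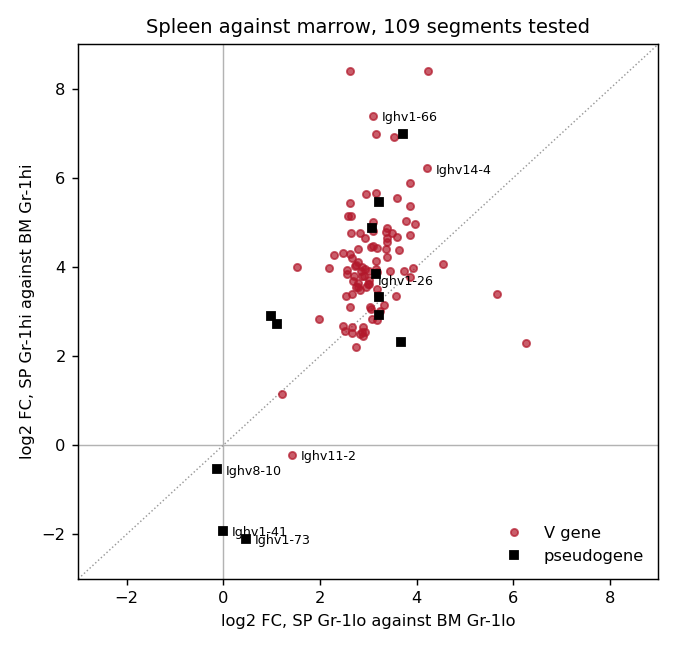
Log2 FC of SP against BM in Gr-1hi cells (vertical axis) and in Gr-1lo cells (horizontal axis) for the 109 segments tested, one point each, circles for V genes and squares for pseudogenes; the dotted line marks equal FC. Most points lie in the upper right, with medians of 3.91 and 3.01, while Ighv1-41 and Ighv1-73 lie below 0 on the vertical axis.

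The segments with the most counts followed the sum. Ighv1-26, the segment with the largest share in 6 of 8 libraries, was at 36.9 and 38.6 CPM in SP Gr-1hi, 26.8 and 39.0 in SP Gr-1lo, 2.62 and 3.18 in BM Gr-1hi and 3.28 and 4.87 in BM Gr-1lo. Its log2 FC of SP against BM was 3.71 ± 0.26 (SE, adjusted p = 0.000107, edgeR) in Gr-1hi cells and 3.01 ± 0.23 (adjusted p = 0.000405, edgeR) in Gr-1lo cells. Ighv9-3 was at 31.6 and 22.0 CPM in SP Gr-1hi, 15.3 and 27.0 in SP Gr-1lo, 0.94 and 1.03 in BM Gr-1hi and 2.19 and 3.74 in BM Gr-1lo. Its log2 FC was 4.77 ± 0.43 and 2.83 ± 0.35 in the 2 subsets, and it was called in both. Ighv3-6 was at 24.95 and 22.4, 16.0 and 24.4, 1.87 and 1.53, and 2.48 and 3.08 CPM in the same order. It was called in both subsets too, at 3.79 ± 0.25 and 2.86 ± 0.23. For these 3 segments the SP and BM libraries did not overlap.

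The segments named for their FC were called without overlap and reached 1 CPM or more in SP. Those named in Gr-1hi cells had few reads in BM Gr-1hi, and choosing the largest FC favours low BM values. Ighv14-4 was at 7.84 and 4.18 CPM in SP Gr-1hi, 3.55 and 3.80 in SP Gr-1lo, 0.11 and 0.04 in BM Gr-1hi and 0.25 and 0.15 in BM Gr-1lo. Its log2 FC was 6.21 ± 0.55 (adjusted p = 0.000228, edgeR) in Gr-1hi cells and 4.20 ± 0.42 (adjusted p = 0.000957, edgeR) in Gr-1lo cells. Ighv8-12 showed 5.87 ± 0.49 and 3.85 ± 0.37 in the same comparisons. Ighv1-66 had 114 and 129 counts in SP Gr-1hi and 0 and 1 in BM Gr-1hi, so its log2 ratio of scaled counts was 7.58 with a 95% counting interval of 5.09 to 12.89. Ighv1-47 had 71 and 66 counts against 1 and 1, a log2 ratio of 5.76 (3.88 to 8.82). Both were called. Of the Ighv counts divided by exon length, Ighv5-16 held 2.16% and 1.38% in BM Gr-1lo, against 0.49% and 0.09% in BM Gr-1hi. It was called in Gr-1hi cells at 5.63 ± 0.46, with 236 and 333 counts against 8 and 1. Its log2 FC was 7.58 without library 9 and 4.78 without library 10, and that of Ighv14-4 was 5.61 without library 5, 7.03 without library 9 and 5.61 without library 10. The fitted log2 FC of Ighv1-66 was 7.39, with 6.35 without library 9 and 10.43 without library 10. These calls held in each case. In Gr-1lo cells, Ighv14-2, Ighv2-9 and Ighv1-54 were called at 3.86 ± 0.40, 3.96 ± 0.47 and 3.87 ± 0.30. Without library 12, Ighv14-2 was at 4.46 and Ighv8-12 at 4.59, both still called. These segments were distributed over 5 families.

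A few pseudogenes did not follow the sum. Ighv1-41 was at 7.07 and 5.24 CPM in BM Gr-1hi, against 1.09 and 2.17 in SP Gr-1hi, 0.82 and 0.93 in SP Gr-1lo and 1.09 and 0.70 in BM Gr-1lo. Both BM Gr-1hi libraries were above all others. In SP, both Gr-1hi libraries were also above both Gr-1lo libraries, and the range of BM Gr-1lo overlapped that of each SP group. Between SP Gr-1hi and SP Gr-1lo, the log2 FC of Ighv1-41 lay between 0.28 and 1.27 without 1 library, and it was not called. Its log2 FC of SP against BM was -1.92 ± 0.36 (adjusted p = 0.00535, edgeR) in Gr-1hi cells and -0.02 ± 0.38 (adjusted p = 0.989, edgeR) in Gr-1lo cells, and the latter changed sign between alternative settings. Ighv1-73 was at 1.27 and 1.28 CPM in BM Gr-1hi, 0.33 and 0.26 in SP Gr-1hi, and 0.13 or less in the Gr-1lo libraries. Its log2 FC was -2.11 ± 0.40 (adjusted p = 0.00526, edgeR) in Gr-1hi cells. Without library 6 the log2 FC of Ighv1-41 in Gr-1hi cells was -2.58. Both calls held without each library in turn, with an adjusted p of at most 0.0297 for Ighv1-41 and 0.0263 for Ighv1-73 over all alternatives (edgeR or DESeq2). Ighv8-10 was at 2.17 and 0.78 CPM in BM Gr-1hi, 0.57 and 1.47 in SP Gr-1hi, 0.08 and 0.03 in SP Gr-1lo and 0.12 and 0.00 in BM Gr-1lo. Its Gr-1hi libraries lay above its Gr-1lo libraries in both tissues and overlapped between SP and BM, where its log2 FC was -0.55 ± 0.73 (adjusted p = 0.595, edgeR) in Gr-1hi cells. Its 2 Gr-1hi libraries differed more than 1.5-fold within each tissue.

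Of the 109 segments, 3 had overlapping SP and BM libraries in Gr-1hi cells, Ighv8-10 and the V genes Ighv1-24 and Ighv11-2, both V genes chosen after their values were seen. Ighv1-24 had 1 and 13 counts in SP Gr-1hi and 3 and 2 in BM Gr-1hi. Ighv11-2 was at 0.63 and 0.45 CPM in SP Gr-1hi, 0.56 and 0.70 in BM Gr-1hi, 0.32 and 0.28 in SP Gr-1lo and 0.12 and 0.09 in BM Gr-1lo. Its log2 FC of SP against BM was -0.22 ± 0.40 (adjusted p = 0.704, edgeR) in Gr-1hi cells, with overlapping libraries, and 1.42 ± 0.46 (adjusted p = 0.135, edgeR) in Gr-1lo cells. As background, this segment is known for its use by B-1 cells, which bind phosphatidylcholine with it.

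Between Gr-1hi and Gr-1lo cells of a tissue, few segments were called. Here a call required more than an 8-fold change, at an adjusted p under 0.01. In SP, 1 of 109 was called higher in Gr-1hi cells, Ighv8-10, where 4.44% of all genes were. None was called lower in edgeR or DESeq2, where 2.93% of all genes were in edgeR. At an unadjusted p of at most 0.05, 16 segments were higher and 0 lower, where 34.7% and 39.0% of all genes were. The log2 FC of Ighv8-10 was 4.17 ± 0.98 (adjusted p = 0.0047, edgeR). The adjusted p was 0.0325 without library 6, 0.0183 without library 7 and 0.0492 without library 8, so that the call rested on each of them. In BM, 2 segments were called higher in Gr-1hi cells, Ighv8-10 and Ighv1-73, and 1 lower, Ighv1-66, where 6.56% and 10.1% of all genes were. Ighv8-10 differed by a log2 FC of 4.58 ± 0.99 (adjusted p = 0.00272, edgeR), with an adjusted p of 0.0244 without library 9 and 0.0133 without library 12. Ighv1-73 differed by 3.97 ± 0.45 (adjusted p = 4.45e-05, edgeR) and stayed called in every alternative run. Ighv1-66, outside the rule for named segments, had 0 and 1 counts in BM Gr-1hi and 21 and 13 in BM Gr-1lo, a log2 ratio of -4.09 (-9.44 to -1.51). Its adjusted p was 0.037 without library 9, 0.0159 without library 11 and 0.0122 in DESeq2. Ighv1-41 was higher in BM Gr-1hi than in BM Gr-1lo by a log2 FC of 2.79 ± 0.37 (adjusted p = 0.000136, edgeR), an FC under the 8 required.

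The median log2 FC of the segments between Gr-1hi and Gr-1lo cells was 0.35 in SP and -0.54 in BM, beside -0.09 and -0.17 over all genes. The difference between these contrasts was tested by the interaction of tissue and subset, at the thresholds for SP against BM. Of the 109 segments, 9 were called with a higher Gr-1hi to Gr-1lo ratio in SP than in BM and 2 with a lower one, where 7.74% and 2.00% of all genes were, so the number of called segments was close to the background. The 2 lower ones were Ighv1-41 and Ighv1-73, the pseudogenes above. Ighv1-69 was among the 9, at a log2 difference of 2.497 ± 0.40 (adjusted p = 0.00668, edgeR). It was at 9.22 and 10.2 CPM in SP Gr-1hi, 8.13 and 9.65 in SP Gr-1lo, 0.34 and 0.21 in BM Gr-1hi and 1.19 and 1.66 in BM Gr-1lo. The subsets overlapped in SP and did not in BM. Without 1 library the number of higher calls was 1 without library 7, 4 without library 5, 9 or 11, 3 without library 10 or 12, 6 without library 8 and 13 without library 6. That of lower calls was 0 or 1.

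Usage was then compared as the share of a segment in the summed Ighv counts of its library, which does not depend on the scaling of libraries. In the 6 libraries other than BM Gr-1hi, Ighv1-26, Ighv9-3 and Ighv3-6 were the 3 segments with the largest shares. Ighv1-26 held 5.95% and 6.77% in SP Gr-1hi, 6.49% and 7.28% in SP Gr-1lo and 6.45% and 6.75% in BM Gr-1lo. The next 2 held 3.70% to 5.18% each. The 3 segments were the same when counts were divided by exon length. In BM Gr-1hi the pseudogene Ighv1-41 held 12.3% (Wilson 95% interval 10.7% to 14.0%) and 11.9% (10.1% to 13.9%), against 0.17% to 0.38% in the SP libraries and 2.14% and 0.97% in BM Gr-1lo. Per exon length it was also first in both BM Gr-1hi libraries.

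Other shares in BM Gr-1hi differed by fewer percentage points. Ighv1-26 held 4.54% (3.61% to 5.70%) and 7.19% (5.79% to 8.89%), which overlapped its range in the other libraries. Ighv1-64 held 5.19% and 4.76%, against 2.43% to 3.02% elsewhere, and Ighv1-53 held 4.09% and 4.95%, against 2.77% or less. Ighv9-3 held 1.62% and 2.33%, against 3.70% to 5.18%. Ighv8-10 held 3.76% and 1.77%, against 0.26% or less, and Ighv1-73 held 2.20% and 2.89%, against 0.16% or less. Ighv11-2 held 0.97% and 1.59%, against 0.05% to 0.24%. All pseudogenes together held 20.0% and 18.8% of the Ighv counts in BM Gr-1hi, 5.84% and 3.30% in BM Gr-1lo and 1.86% to 2.86% in the SP libraries. Except for Ighv1-26, both BM Gr-1hi libraries lay on the same side of all other libraries for each segment named in this paragraph, below them for Ighv9-3 and above them for the rest.

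**Figure D3:**
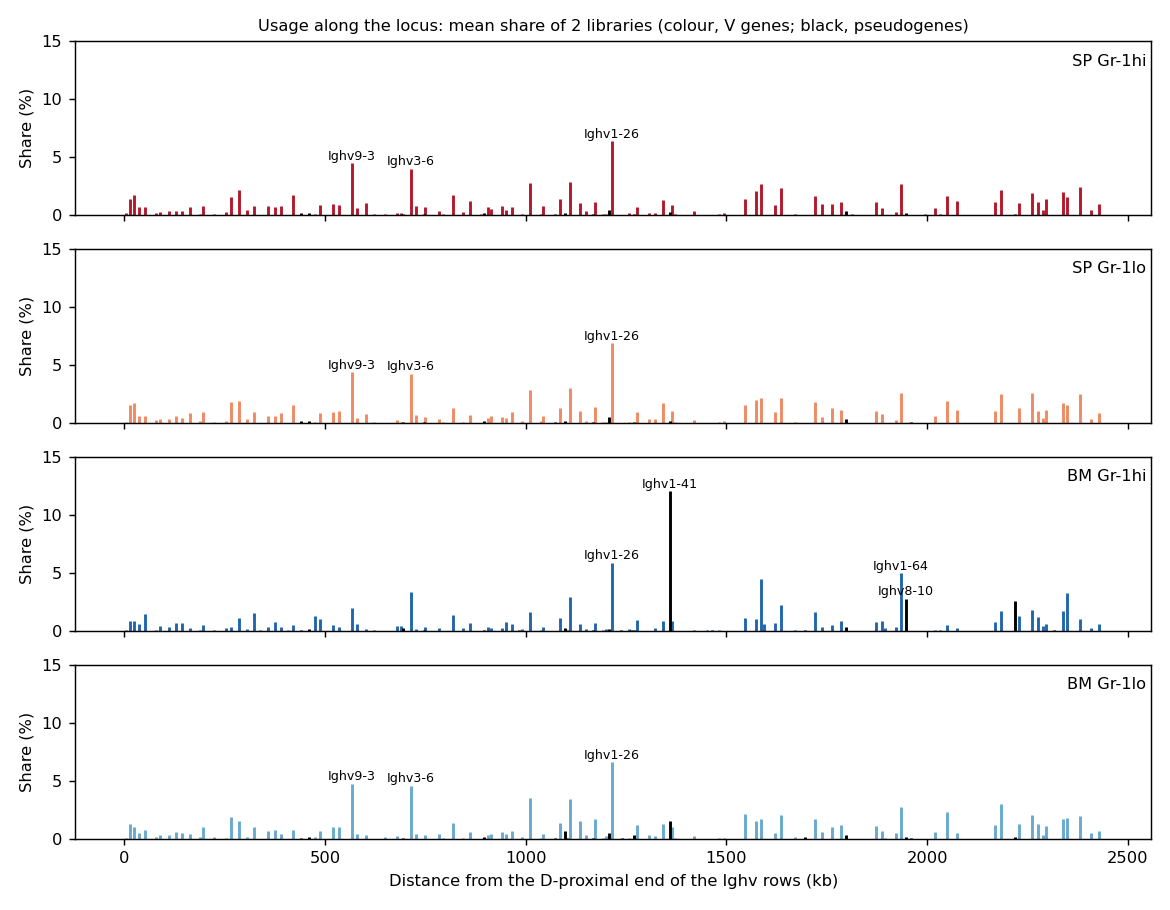
Share of summed Ighv counts (vertical axis, %, mean of 2 libraries) of each of the 185 rows against the distance from the D-proximal end of the rows (horizontal axis, kb), one panel per group, coloured lines for V genes and black lines for pseudogenes. Ighv1-26, Ighv9-3 and Ighv3-6 lead in 3 panels, and the pseudogene Ighv1-41 leads in BM Gr-1hi with 12.3% and 11.9% in its libraries.

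The Ighv1 family, with 93 rows, had the largest share in every library. It held 58.9% and 61.0% in SP Gr-1hi, 60.3% and 63.2% in SP Gr-1lo, 67.1% and 67.7% in BM Gr-1hi and 65.6% and 64.5% in BM Gr-1lo. The BM libraries were thus above the SP libraries. Without pseudogenes, the group mean was 63.6% in BM Gr-1hi and 63.9% in BM Gr-1lo. Ighv9, with 4 rows, held 2.79% and 3.08% in BM Gr-1hi, below the 6.23% to 7.85% of the other 6 libraries. Ighv14, with 4 rows, held 5.10%, 3.68%, 4.44% and 3.13% in the SP libraries, 1.69% and 2.24% in BM Gr-1hi and 2.42% and 2.54% in BM Gr-1lo, so that the values of SP and BM did not overlap. The intervals of libraries 8 (2.97% to 3.29%) and 10 (1.51% to 3.31%) did. Ighv8 held 5.97% and 5.14% in BM Gr-1hi and 2.38% to 3.70% elsewhere, and Ighv11 held 1.10% and 1.59% and 0.065% to 0.242%. Ighv5 held 7.32%, 8.53%, 9.27% and 7.23% in the SP libraries and 6.74%, 4.30%, 7.17% and 6.59% in the BM libraries. Ighv2, Ighv3, Ighv4, Ighv6, Ighv7, Ighv10, Ighv12, Ighv13 and Ighv15 overlapped between SP and BM, and Ighv16 had no more than 0.0051% in any library.

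**Figure D4:**
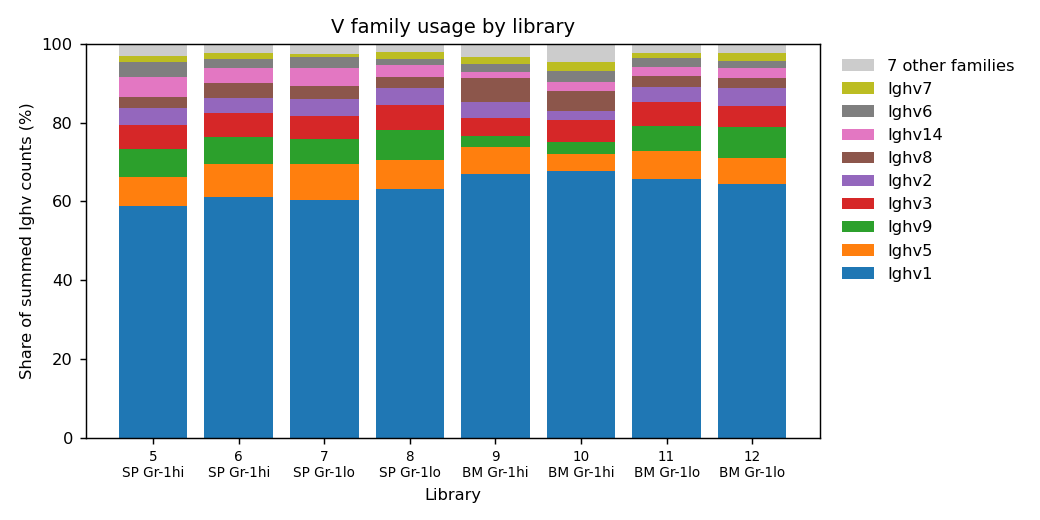
Share of summed Ighv counts (vertical axis, %) by V family in each library (horizontal axis, number and group), stacked bars with the 7 smaller families in grey. Ighv1 held 58.9% to 67.7% in every library, and Ighv9 was narrowest in libraries 9 and 10, at 2.79% and 3.08%.

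Counts were spread over many segments in every library. The effective number of segments, the number of equally used segments that would give the same concentration (inverse Simpson index), was 49.6 and 50.2 in SP Gr-1hi, 50.8 and 45.0 in SP Gr-1lo, 47.2 and 45.6 in BM Gr-1lo, and 31.2 and 29.4 in BM Gr-1hi. SP Gr-1lo spanned the values of SP Gr-1hi and BM Gr-1lo, and BM Gr-1hi was below all 3. The 10 segments with the most counts held 31.6% to 36.3% in the 6 other libraries and 44.2% and 46.8% in BM Gr-1hi. It took 17 to 20 segments to hold 50% of the counts in the former and 13 and 12 in the latter. No segment held more than 7.28% outside BM Gr-1hi. Without pseudogenes, the group mean of the effective number was 47.7 in SP Gr-1hi, 45.9 in SP Gr-1lo, 43.0 in BM Gr-1lo and 38.6 in BM Gr-1hi. The number of rows with a count was 144 to 153 in the SP libraries and 103 to 122 in the BM libraries, which all had fewer Ighv counts. At 1071 Ighv counts, the number in the smallest library, 100 to 106 rows were expected in each of the 8 libraries.

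**Figure D5:**
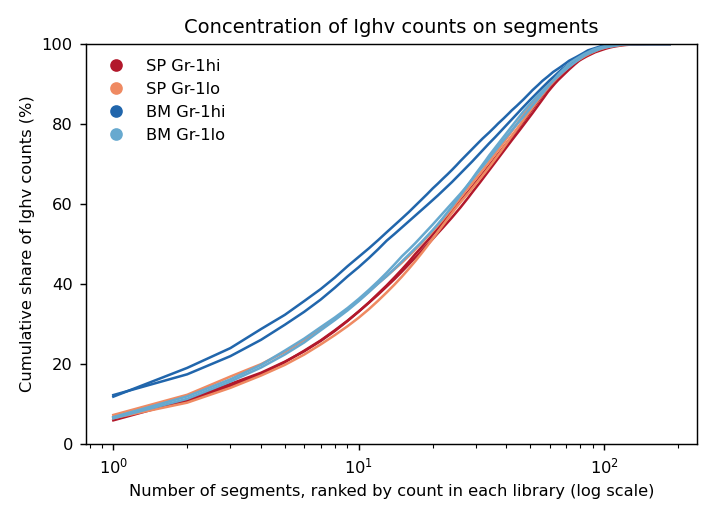
Cumulative share of Ighv counts (vertical axis, %) over segments ranked by count in each library (horizontal axis, number of segments, log scale), one line per library. The 2 BM Gr-1hi lines run above the others, with 44.2% and 46.8% of the counts in the first 10 segments against 31.6% to 36.3%.

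The profiles of shares were compared between libraries over the 185 rows, as a description, since rows share depth and sequence. Pearson's r was 0.94 to 0.99 between SP Gr-1hi and SP Gr-1lo libraries, 0.91 to 0.97 between SP and BM Gr-1lo libraries and 0.50 to 0.65 between BM Gr-1hi libraries and those of the other groups. Over the 113 V genes alone the last range was 0.76 to 0.80, beside 0.85 within BM Gr-1hi. By Spearman's rho over the 185 rows, the BM Gr-1hi libraries were at 0.81 to 0.86 with those of other groups and at 0.86 with each other. Within a group r was 0.95 in SP Gr-1hi, 0.97 in SP Gr-1lo, 0.93 in BM Gr-1hi and 0.93 in BM Gr-1lo. Libraries 6 and 7, of different SP groups, were the pair with the highest r, 0.99, and shared 9 of their 10 leading segments. Libraries 5 and 6, of the same group, shared 7.

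Position along the locus was also examined. D-proximal segments lie nearest to the D and J segments, and the rows were divided into 3 parts of equal length. The D-proximal part, with 68 rows, held 31.7% to 32.8% of the counts in the SP libraries, 24.6% and 22.5% in BM Gr-1hi and 28.7% and 30.4% in BM Gr-1lo. The values of SP and BM did not overlap, but no counting intervals were computed for these parts. The middle part, which holds Ighv1-26 and Ighv1-41, held 35.2% to 35.9% in SP, 39.8% and 45.1% in BM Gr-1hi and 36.7% and 38.4% in BM Gr-1lo. Ighv1-41 alone held 12.3% and 11.9% in BM Gr-1hi, and its part in the lower D-proximal share there was not tested. The D-distal part, with 45 rows, held 31.2% to 35.7% in all libraries, with overlap between the tissues. The most D-proximal row, the pseudogene Ighv5-1, had at most 3 counts in any library. Ighv5-2, the V gene near it that is used often in early B cell precursors, had 36 and 26 counts in SP Gr-1hi, 21 and 45 in SP Gr-1lo, 3 and 0 in BM Gr-1hi and 2 and 1 in BM Gr-1lo. Its log2 ratio of SP to BM was 4.03 (2.41 to 6.35) in Gr-1hi cells and 4.07 (2.46 to 6.38) in Gr-1lo cells, and both were called. In Gr-1hi cells its fitted log2 FC was 3.97, with 8.45 without library 9 and 2.97 without library 10. In Gr-1lo cells its adjusted p (edgeR) rose to 0.097 without library 8, 0.0842 without library 11 and 0.153 without library 12.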

How the data were processed

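RNA of sorted cells was measured in 8 libraries, 2 for each of 4 groups, made with a stranded mRNA kit and read as pairs of 101 bases. Per the submitters' processing notes and the paper's methods, the authors checked reads with FastQC 0.11.8, trimmed them with Sickle 1.33, aligned them to GRCm38 with STAR 2.5.3a and counted them per gene with featureCounts of Subread 1.6.4. The deposited table holds whole-number counts for 54188 genes without normalization. How reads that fit several segments were treated is not given in the sources used here.

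Counts were tested with edgeR 4.0.16 (R 4.3.3). Genes were filtered with filterByExpr, which left 17650, scaled by TMM and fitted in 1 robust quasi-likelihood model over all 8 libraries, leaving 4 residual degrees of freedom. Adjusted p values are Benjamini-Hochberg values over all 17650 genes, and the thresholds were those of the paper. DESeq2 1.42.0, RLE and upper-quartile scaling, no filter, a fit of the 4 libraries compared and leaving out each library were alternatives. Positions, classes, exon lengths and sequences came from GENCODE M21, which matched all 185 rows. The authors' release was M24, on the same build. Named segments were the 3 with the largest share in each library, up to 5 called segments in each direction of each comparison with no overlap and at least 1 CPM in the higher group, up to 5 of the interaction, and the most D-proximal row and Ighv5-2. The lists were B cell, plasma cell, early B cell, constant, V(D)J and class switch, T cell, neutrophil and monocyte genes. Members, lists and tests were chosen with earlier results of these data known.

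Depth was 33453580 to 68316154 counts per library. On simulated data, 176 of 200 genes changed by a log2 of 2 were recovered for SP against BM Gr-1hi cells over 17650 genes, with 6 false calls. For Gr-1lo cells 180 were recovered with 13 false calls, and for the interaction 156 with 8. At a log2 of 4, 195 and 190 were recovered between the subsets in SP and BM, with 0 false calls. Only genes above a minimum mean count were changed, so recovery of segments with few counts was not measured. All other genes had the same scaled mean in the 4 groups. In the data, 5998 genes had an adjusted p of at most 0.05 (edgeR) for SP against BM Gr-1hi cells. The simulated recovery and false calls therefore hold for a setting with far fewer changes. P values measure the spread between these libraries.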

Additional observations from a re-analysis of the deposited data

Results flagged for a closer look

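The Gr-1hi to Gr-1lo ratio differed between SP and BM in 11 segments, by the interaction of tissue and subset in edgeR. Of 109 segments, 9 were called higher and 2 lower, where 7.74% and 2.00% of all genes were, close to the background. Values are the log2 ratio in SP minus that in BM, with the SE. They were lower in SP for Ighv1-73, at -2.58 ± 0.67, and for Ighv1-41, at -1.91 ± 0.52. Ighv1-66 was at 4.30 ± 0.97, with 1 count in the 2 BM Gr-1hi libraries together. Ighv1-5 was at 2.80 ± 0.79 and Ighv5-16 at 2.67 ± 0.61. Ighv1-69 was at 2.497 ± 0.40. Ighv1-47 was at 2.49 ± 0.70. Ighv9-2 was at 1.91 ± 0.51 and Ighv1-82 at 1.43 ± 0.29. Ighv1-62-2, at 1.31 ± 0.36, and Ighv1-71, at 1.28 ± 0.33, had 9.71% and 3.09% of their 101-base stretches unique among annotated transcripts, so their separate values are uncertain. Over 12 alternatives the call was lost in 10 for Ighv1-73 and for Ighv1-47, 9 for Ighv1-62-2, 8 for Ighv1-71, 6 for each of Ighv1-41, Ighv1-5 and Ighv9-2, 5 for Ighv5-16, 4 for Ighv1-82, 3 for Ighv1-66 and 0 for Ighv1-69. The BM Gr-1hi libraries had the fewest Ighv counts, and the part of depth in these differences was not tested.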

How the results depend on the processing

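No paired analysis was possible because the library numbers 5 to 12 are shared by no groups, and, although the marrow cells are described as autologous, no source pairs the libraries. In Gr-1hi cells, 84 to 97 segments were called higher in SP and 2 lower when 1 library was left out, and in Gr-1lo cells 59 to 88 higher. Without 1 library, the calls between subsets were 0 to 1 higher in SP, and 1 to 4 higher and 0 to 1 lower in BM, and for the interaction 1 to 13 higher and 0 to 1 lower. Without a filter the calls between BM subsets were 4 higher and 2 lower, since 171 segments were then tested, and those of the interaction 23 higher and 1 lower. DESeq2 called 15 higher and 1 lower in the interaction. The share of all genes called in each of these alternative runs is not given here. The counts of these runs can therefore not be read against the shares of the main fit. The fit of 4 libraries called 0 lower between BM subsets, with 61 segments tested.

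In CPM without TMM, the summed level was 501 in SP Gr-1hi, 604 in SP Gr-1lo, 37.1 in BM Gr-1hi and 78.4 in BM Gr-1lo, which turned the order of the SP subsets. Without its leading segment SP Gr-1hi was at 558 CPM. The effective number per exon length was 48.8 in SP Gr-1hi, 27.5 in BM Gr-1hi and 44.7 in BM Gr-1lo. It was 47.7, 38.6 and 43.0 without pseudogenes, and 55.0, 42.0 and 50.7 without the leading segment, which gave 53.7 in SP Gr-1lo. At a fixed number of Ighv counts, 104.2 rows were expected in SP Gr-1hi, 101.7 in SP Gr-1lo and 103.1 in BM Gr-1lo. The share of the Ighv1 family was 67.9% in BM Gr-1hi per exon length, and 63.6% and 63.9% in BM Gr-1hi and BM Gr-1lo without pseudogenes. Without the leading segment it was 57.2%, 58.9%, 62.9% and 62.6% in SP Gr-1hi, SP Gr-1lo, BM Gr-1hi and BM Gr-1lo.

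Among named segments, 3 comparisons changed sign, none of them called. Ighv1-41 in Gr-1lo cells of SP against BM went to 0.016 with upper-quartile scaling, 0.033 without a filter and 0.0069 with 4 libraries, and lay between -0.30 and 0.33 without 1 library. Ighv8-10 in Gr-1hi cells lay between -1.45 and 0.30, and Ighv1-26 between the SP subsets between -0.071 and 0.47. Over the named segments, 585 recomputed values kept direction and side of the threshold, 79 lost the call and 3 gained one. The cause was not tested. Depth limits the BM Gr-1hi libraries, with 1542 and 1071 Ighv counts.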
